A study of Mus musculus with 12 samples.

Results

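AMP-activated protein kinase (AMPK) is built from 1 catalytic α, 1 scaffolding β and 1 nucleotide-binding γ subunit, and 7 mouse genes encode these subunits. The 7 genes were taken from a count table of 52636 genes by matching their Ensembl identifiers to the symbols Prkaa1, Prkaa2, Prkab1, Prkab2, Prkag1, Prkag2 and Prkag3, and all 7 passed the filter on low counts that left 17993 tested genes. The family was selected on measured values: Prkaa2 had the smallest p of all genes lower in LL37 than in control skin in an earlier analysis of these counts. Values of the LL37 against control comparison are therefore given for the members as a description, with no test. The other comparisons were tested by edgeR across all 17993 genes. Of these only LL37 + RAPA against control + RAPA compares neither group of that comparison, although the fit took the spread of each gene from all 12 libraries.

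Skin was sequenced from female BALB/c mice aged 6 to 8 weeks in 4 groups of 3 biological samples with 1 library each, namely control, control + RAPA, LL37 and LL37 + RAPA. LL37, the active peptide of human cathelicidin, was injected intradermally into shaved back skin (40 μl at 320 μM, 2 times a day for 2 days) to cause rosacea-like inflammation, and control mice received the vehicle in the same way. RAPA is rapamycin, an inhibitor of the kinase complex mTORC1. BALB/c mice in this work were given 4 mg/kg per day intraperitoneally, or vehicle, although the route is not named for the sequenced mice. The model is an acute reaction to an injected human peptide, and whole skin holds epidermis, dermis, fat and the thin muscle sheet beneath them. All 10 epidermal markers were above 3 counts in every library (2.93% to 4.99% of counts). LL37 replicate 3 stood apart from its group on the first principal component (68.3% of the variance), at 64.4 against 133 and 129 for replicates 1 and 2, and the values of Prkag3 that rest on it are also given without it.

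AMPK is switched on when AMP and ADP rise against ATP and when its α subunit is phosphorylated by LKB1. It slows biosynthesis, favours catabolism and restrains mTORC1 through Tsc2 and Raptor, which links it to the target of rapamycin. In most tissues the complex is assembled from α1, β1 and γ1 (Prkaa1, Prkab1, Prkag1). Skeletal muscle is rich in α2 and β2 (Prkaa2, Prkab2), and γ3 (Prkag3) is largely restricted to fast glycolytic muscle fibres, whereas γ2 (Prkag2) is found in heart and several other tissues. These textbook classes, muscle-enriched (3 genes), ubiquitous (3 genes) and intermediate (1 gene, Prkag2), are used below.

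The 250 bases upstream of the RefSeq starts of the muscle-enriched genes are shown because their upstream regions are of different kinds. The choice of these genes over their ubiquitous partners also rests on the LL37 against control values. Those values chose the family, so they are a description here and nothing is read from them. Between LL37 + RAPA and control + RAPA, Prkaa2 and Prkab2 passed the test as lower, and Prkag3 did not pass (edgeR adjusted p = 0.374). Capitals mark CG dinucleotides, and each run is written 5′ to 3′ on the strand of the gene (RefSeq, GRCm38.p6). Prkaa2 lies at chr4:105109899-105110148 on the minus strand, Prkab2 at chr3:97657962-97658211 on the plus strand and Prkag3 at chr1:74748956-74749205 on the minus strand. The RefSeq starts of Prkab2 and Prkag3 lie inside the GENCODE gene models whose ends are given with the values.
Prkaa2: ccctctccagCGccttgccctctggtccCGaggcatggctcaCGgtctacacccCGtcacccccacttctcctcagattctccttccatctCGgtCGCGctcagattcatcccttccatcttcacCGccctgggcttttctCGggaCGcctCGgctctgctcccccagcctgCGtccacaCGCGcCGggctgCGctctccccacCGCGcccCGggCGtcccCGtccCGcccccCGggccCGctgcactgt
Prkab2: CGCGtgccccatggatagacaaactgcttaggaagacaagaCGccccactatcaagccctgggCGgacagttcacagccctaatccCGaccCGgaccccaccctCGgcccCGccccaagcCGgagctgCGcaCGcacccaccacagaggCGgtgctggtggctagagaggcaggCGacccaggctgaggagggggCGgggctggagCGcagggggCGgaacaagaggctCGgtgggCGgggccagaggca
Prkag3: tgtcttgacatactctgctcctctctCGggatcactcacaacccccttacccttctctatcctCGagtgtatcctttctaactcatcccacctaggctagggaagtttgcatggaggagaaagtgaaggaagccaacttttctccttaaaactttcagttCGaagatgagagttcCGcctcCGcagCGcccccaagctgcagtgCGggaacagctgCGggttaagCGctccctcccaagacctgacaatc
The Prkaa2 window holds 24 CG dinucleotides and the Prkab2 window 18, while that of Prkag3 holds 9. The windows of the ubiquitous genes hold 45 (Prkaa1), 24 (Prkab1) and 12 (Prkag1). The median over all 32851 RefSeq mouse promoters is 6. The Prkag3 window has 1 copy of the muscle E-box CAGCTG (a palindrome, so both strands were searched at once), from 40 to 35 bases before the start, and 13.0% of all promoter windows have at least 1. These letters occur in none of the other members' windows, including the 3 windows of Prkag2. The MEF2 and SRF CArG motifs, searched on both strands, were in no member's window, against 2.92% and 1.47% of all windows. A match of letters is a description and not a binding site.

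The α2 gene fell most of the 7 in skin treated with LL37 and RAPA, and the ubiquitous α1 gene did not pass the test in any comparison tested. Prkaa2 (chromosome 4, 105029874 to 105109890, minus strand, GRCm38) was counted at 58.6, 45.0 and 50.8 CPM (counts per 1000000, normalized by TMM) in the control libraries and at 49.8, 49.8 and 49.3 CPM in control + RAPA. In LL37 it was at 4.74, 4.23 and 4.10 CPM, and in LL37 + RAPA at 8.97, 7.57 and 8.88 CPM. All 6 libraries without LL37 were far above all 6 with it, and the LL37 + RAPA libraries were all above the LL37 libraries. The mean was 51.5 ± 6.8 CPM (SD, n = 3) in control and 4.35 ± 0.34 CPM in LL37, an 11.8-fold difference that rests on 69 to 87 counts per LL37 library. Between LL37 + RAPA and control + RAPA, neither of which is compared in LL37 against control, Prkaa2 was 5.86-fold lower (log2 fold change -2.55 ± 0.12 SE, edgeR adjusted p = 7.58e-07). That fit took the spread of the gene from all 12 libraries. In a fit of these groups alone the log2 fold change was -2.52 (edgeR adjusted p = 9.09e-06). LL37 + RAPA was 1.94-fold above LL37 (log2 fold change 0.96 ± 0.12 SE, edgeR adjusted p = 0.00145), a comparison that shares the LL37 libraries with the one in which the gene was noticed. The gene was still 6.07-fold lower in LL37 + RAPA than in control (log2 fold change -2.60 ± 0.12 SE, edgeR adjusted p = 8.34e-07).

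Prkaa1 (chromosome 15, 5143861 to 5181899, plus strand) encodes α1, the catalytic subunit of most cells. Its level was 37.5, 38.5 and 34.5 CPM in control, 38.0, 39.0 and 37.4 CPM in control + RAPA, 40.8, 48.2 and 45.5 CPM in LL37 and 37.8, 42.6 and 39.8 CPM in LL37 + RAPA. The LL37 libraries were all above the control libraries, by 1.22-fold on average, and overlapped those of LL37 + RAPA. The difference between LL37 + RAPA and control + RAPA was 0.07 ± 0.09 (log2 ± SE, edgeR adjusted p = 0.659), with an interval of 2 SE on either side from -0.11 to 0.25.

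Of the β genes, Prkab2 was lower with LL37 and did not pass the test between LL37 + RAPA and LL37. Prkab2 (chromosome 3, 97658193 to 97673812, plus strand) encodes β2, the scaffold of most muscle AMPK. It was at 95.8, 62.9 and 92.7 CPM in control and 95.8, 73.5 and 72.5 CPM in control + RAPA. In LL37 it was at 28.5, 27.6 and 34.8 CPM and in LL37 + RAPA at 36.0, 35.4 and 33.2 CPM. The libraries with LL37 were all below those without it, and those of LL37 and LL37 + RAPA overlapped. In LL37 the mean was 2.77-fold lower than in control. LL37 + RAPA was 2.31-fold lower than control + RAPA (log2 fold change -1.21 ± 0.17 SE, edgeR adjusted p = 0.000546). The difference between LL37 + RAPA and LL37 was 0.20 ± 0.17 (log2 ± SE, edgeR adjusted p = 0.399), with an interval of 2 SE from -0.13 to 0.54.

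Prkab1 (chromosome 5, 116013586 to 116024508, minus strand) encodes β1. It was at 30.2, 29.7 and 31.9 CPM in control, 31.8, 34.9 and 33.9 CPM in control + RAPA, 40.9, 45.0 and 38.4 CPM in LL37 and 33.1, 33.7 and 36.8 CPM in LL37 + RAPA. The LL37 libraries were the highest of all 12, with no overlap with any other group. LL37 was 1.35-fold above control on average. Between LL37 + RAPA and LL37 the difference of -0.26 ± 0.09 (log2 ± SE) did not pass the test (edgeR adjusted p = 0.0516), but passed in DESeq2 (adjusted p = 0.0229), in edgeR with DESeq2 size factors (adjusted p = 0.0418), in edgeR with the muscle list removed (adjusted p = 0.0491) and without LL37 replicate 3 (log2 fold change -0.31, edgeR adjusted p = 0.0208).

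Of the γ genes, Prkag3 was lower in LL37 and rose in LL37 + RAPA against LL37, and Prkag1 and Prkag2 did not pass the test in the comparisons tested. Prkag3 (chromosome 1, 74738922 to 74749221, minus strand) encodes γ3, the subunit of fast muscle fibres. It was at 11.5, 8.46 and 17.8 CPM in control, 16.05, 7.85 and 5.07 CPM in control + RAPA, 0.490, 0.368 and 2.83 CPM in LL37 and 6.64, 4.75 and 5.27 CPM in LL37 + RAPA. The LL37 libraries lay below all others, and those of LL37 + RAPA overlapped with control + RAPA but not with control. LL37 replicates 1 and 2 held 9 and 6 counts of the gene and LL37 replicate 3 held 60. The average in LL37 was 9.80-fold lower than in control on the fitted scale (log2 fold change -3.29), and the log2 fold change was -4.81 without LL37 replicate 3. LL37 + RAPA was 4.32-fold above LL37 (log2 fold change 2.11 ± 0.64 SE, edgeR adjusted p = 0.033). That call was lost when any 1 of LL37 replicates 1 and 2 or LL37 + RAPA replicates 1, 2 and 3 was left out (edgeR adjusted p from 0.0543 to 0.119) and in a fit of these 2 groups alone (edgeR adjusted p = 0.0801), and the log2 fold change rose to 3.67 without LL37 replicate 3 (edgeR adjusted p = 0.00111). Between LL37 + RAPA and control + RAPA the difference was -0.80 ± 0.56 (log2 ± SE, edgeR adjusted p = 0.374), with an interval of 2 SE from -1.92 to 0.32. It was -0.20 without control + RAPA replicate 1, the highest library of that group.

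Prkag1 (chromosome 15, 98812797 to 98831521, minus strand) encodes γ1, the nucleotide sensor of most cells. Its level was 49.7, 50.2 and 52.6 CPM in control, 60.3, 49.5 and 61.8 CPM in control + RAPA, 51.4, 62.8 and 47.4 CPM in LL37 and 52.9, 53.2 and 52.6 CPM in LL37 + RAPA. All groups overlapped, and control and LL37 + RAPA did so only near 52.6 CPM. No comparison of Prkag1 passed the test (edgeR adjusted p from 0.512 to 0.894 in those tested). Prkag2 (chromosome 5, 24862744 to 25100642, minus strand) encodes γ2. It was at 35.9, 34.0 and 37.2 CPM in control, 31.5, 38.4 and 37.2 CPM in control + RAPA, 28.7, 30.0 and 32.6 CPM in LL37 and 34.7, 41.0 and 35.7 CPM in LL37 + RAPA. The LL37 libraries were below those of control and of LL37 + RAPA. Between LL37 + RAPA and LL37 the difference of 0.29 ± 0.10 (log2 ± SE) did not pass the test (edgeR adjusted p = 0.0663), but passed without LL37 replicate 3 (log2 fold change 0.34, edgeR adjusted p = 0.034).

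**Figure D1:**
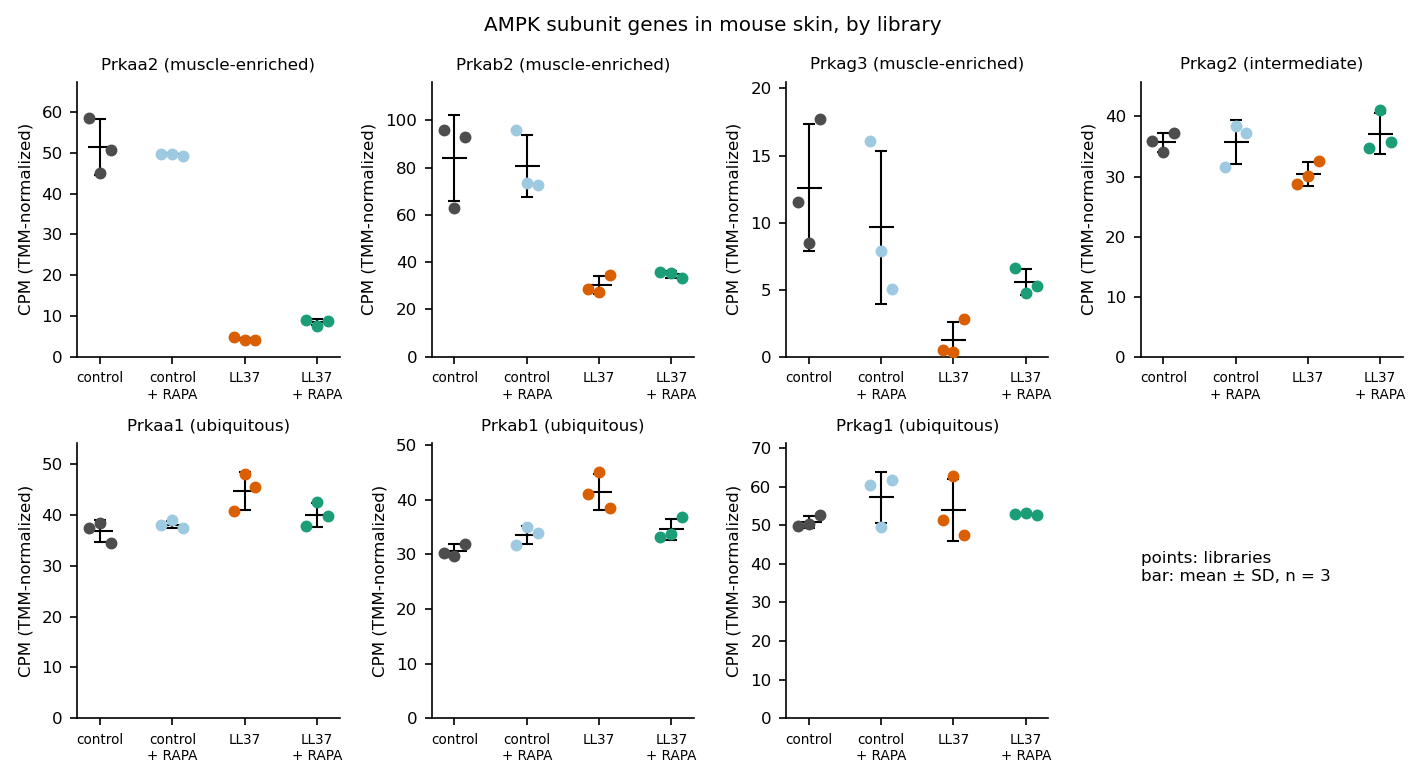
Level of each AMPK subunit gene in CPM (vertical axis, from 0) in the 4 groups (horizontal axis), with 1 point per library and bars for the mean and SD of 3 libraries. Prkaa2 and Prkab2 separate the 6 libraries with LL37 from the 6 without it, whereas Prkaa1, Prkab1 and Prkag1 stay between 29.7 and 62.8 CPM in every library.

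Counted over the family, 2 of 7 members (Prkaa2 and Prkab2) were lower in LL37 + RAPA than in control + RAPA and 0 were higher. Of all genes tested, 18.6% were past the test in this comparison and 10.4% were past it and lower. The median log2 fold change of the 7 members was -0.11, against -0.01 over all genes. The 3 muscle-enriched genes ranged from -2.55 to -0.80 and the 3 ubiquitous ones from -0.11 to 0.07. Groups did not overlap for 2 of 7 members, against 41.3% of all genes. Leaving out any 1 of the 12 libraries gave 2 called members each time.

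In LL37 + RAPA against LL37, 2 of 7 members were higher (Prkaa2 and Prkag3) and 0 lower, with 24.2% of all genes past the test and 12.4% past it and higher. With an absolute log2 fold change above 1 as well, 1 member (Prkag3) and 10.1% of all genes passed. Groups did not overlap for 4 of 7 members, against 38.3% of all genes. The muscle-enriched genes ranged from 0.20 to 2.11 on the log2 scale and the ubiquitous ones from -0.26 to -0.02. The number of called members was 3 in DESeq2, 3 in edgeR with DESeq2 size factors or with the muscle list removed, 4 without LL37 replicate 3, where Prkab1 and Prkag2 also passed, and 1 without any 1 of the 5 other libraries of these groups. Over all genes, 5166 of 17993 passed in DESeq2, 4408 of 17993 with DESeq2 size factors and 4378 of 17903 with the muscle list removed. Without LL37 replicate 3, 6408 of 18396 passed. Without any 1 of the 5 others, from 2089 of 18403 to 3208 of 18418 passed.

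RAPA alone moved no member past the test. In control + RAPA against control, 0 of 7 members passed in edgeR, 0 had an unadjusted p under 0.05 and 0 passed in DESeq2. Over all genes 0% passed in edgeR, 8.65% had an unadjusted p under 0.05, and DESeq2 called 109 genes. The log2 fold changes of the members lay between -0.38 (Prkag3, ± 0.55 SE) and 0.17 (Prkag1, ± 0.11 SE). Groups overlapped for all 7 members, whereas 15.7% of all genes did not overlap. These values share the control libraries with LL37 against control.

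The effect of RAPA was then compared between LL37-injected and control skin by the interaction term. This term contains the LL37 against control difference on which Prkaa2 was picked, so its value and p for Prkaa2 are not independent of that choice. Prkaa2 alone of the 7 passed, with an effect that was larger in LL37 skin by 1.01 ± 0.17 (log2 ± SE, edgeR adjusted p = 0.0211), where 3.28% of all genes passed and 2.15% passed and were higher. The adjusted p of Prkaa2 rose to 0.0523 without control replicate 1, 0.062 without control + RAPA replicate 3 and 0.0687 without LL37 + RAPA replicate 1. For Prkag3 the interaction was 2.49 ± 0.84 (log2 ± SE, edgeR adjusted p = 0.114) and for Prkab1 it was -0.39 ± 0.13 (edgeR adjusted p = 0.103). Both passed in DESeq2 (adjusted p = 0.029 and 0.0478) and without LL37 replicate 3 (edgeR adjusted p = 0.00381 and 0.0299). Calls over all genes rose in these settings too, from 590 of 17993 to 1745 of 17993 and 3145 of 18396.

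Against control, whose libraries are shared with LL37 against control, 2 of 7 members were lower in LL37 + RAPA (Prkaa2 and Prkab2) and 0 higher, with 14.0% of all genes past the test and 9.01% past it and lower. Prkab2 was 2.40-fold lower (log2 fold change -1.27 ± 0.17 SE, edgeR adjusted p = 0.000436), and Prkag3 had a log2 fold change of -1.18 ± 0.56 SE (edgeR adjusted p = 0.198). Groups did not overlap for 4 of 7 members, against 36.4% of all genes.

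As a description of the comparison that chose the family, from which nothing is read, 5 of 7 members were past the threshold in LL37 against control, 3 lower (Prkaa2, Prkag3, Prkab2) and 2 higher (Prkaa1, Prkab1), with 42.6% of all genes past it, 21.6% lower and 21.0% higher. The 3 lower members also had an absolute log2 fold change above 1, as 19.5% of all genes did. Groups did not overlap for 6 of 7 members, all but Prkag1, against 49.7% of all genes.

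**Figure D2:**
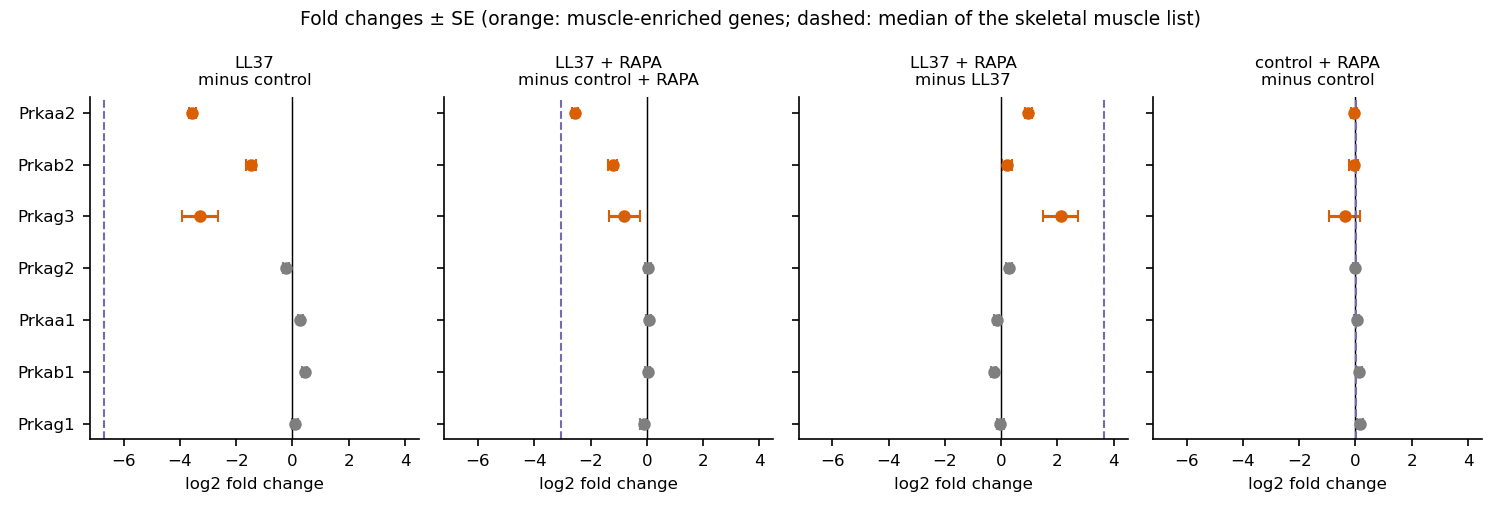
Log2 fold change (horizontal axis) with its SE for each gene (vertical axis) in 4 comparisons, with muscle-enriched genes in orange, the others in grey, and a dashed line at the median of the skeletal muscle list. The 3 muscle-enriched genes lie on the side of the dashed line in the first 3 panels but nearer to 0, and the 4 other genes stay within 0.44 of 0.

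Ratios between isoforms within a library do not depend on how libraries are scaled. For the α pair, the log2 ratio of Prkaa2 to Prkaa1 counts was 0.64, 0.23 and 0.56 in control and 0.39, 0.35 and 0.40 in control + RAPA. It was -3.10, -3.50 and -3.46 in LL37 and -2.07, -2.49 and -2.16 in LL37 + RAPA. The ratio of counts was thus above even in all libraries without LL37 and below it in all others, and LL37 + RAPA lay between LL37 and the control groups without overlap. Counts also follow exonic length, which is 7969 bases for Prkaa2 and 4655 for Prkaa1. Per kb of that length, the control mean of Prkaa2 (6.46 CPM) was below that of Prkaa1 (7.91 CPM). The difference between LL37 + RAPA and control + RAPA was -2.62 and that between LL37 + RAPA and LL37 was 1.11, each with a two-sided exact permutation p = 0.1, the smallest that 3 against 3 libraries allow.

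The ratio of Prkab2 to Prkab1 had a mean log2 of 1.43 ± 0.31 (SD, n = 3) in control, 1.25 ± 0.29 in control + RAPA, -0.46 ± 0.29 in LL37 and 0.01 ± 0.14 in LL37 + RAPA. It separated LL37 + RAPA from control + RAPA (difference -1.24, exact permutation p = 0.1) but not from LL37, where the libraries overlapped (0.47, exact permutation p = 0.2). The ratio of Prkag3 to Prkag1 was -2.08 ± 0.50 in control, -2.72 ± 0.85 in control + RAPA, -6.00 ± 1.71 in LL37 and -3.26 ± 0.25 in LL37 + RAPA, and the LL37 mean was -6.97 without replicate 3. LL37 + RAPA and LL37 did not overlap in this ratio (2.74, exact permutation p = 0.1), and LL37 + RAPA and control + RAPA did (-0.54, exact permutation p = 0.4). The ratio of Prkag2 to Prkag1 stayed between -1.06 and -0.37 in all 12 libraries, with overlap in every comparison. Of the 12 planned ratio tests none passed after Benjamini-Hochberg adjustment (smallest adjusted exact p = 0.3), which this number of libraries cannot do.

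Among the muscle-enriched genes themselves, the log2 ratio of Prkaa2 to Prkab2 was -0.69 ± 0.22 (SD, n = 3) in control + RAPA and -2.04 ± 0.16 in LL37 + RAPA, a difference of -1.35 with no overlap (exact permutation p = 0.1). In contrast, the log2 ratio of Prkag3 to Prkaa2 was higher in LL37 + RAPA (-0.62 ± 0.17) than in control + RAPA (-2.52 ± 0.83), by 1.91 with no overlap (exact permutation p = 0.1), but overlapped between LL37 + RAPA and LL37 (1.77, exact permutation p = 0.3) and between control + RAPA and control (-0.43, exact permutation p = 0.4). These 2 ratios were chosen after the values of the members had been seen.

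To set levels of different genes side by side, CPM was divided by exonic length in kb. In control skin the order was Prkag1 (23.4 ± 0.7 CPM per kb), Prkab2 (16.4 ± 3.6), Prkab1 (9.99 ± 0.37), Prkaa1 (7.91 ± 0.45), Prkaa2 (6.46 ± 0.86), Prkag2 (5.51 ± 0.24) and Prkag3 (3.42 ± 1.29). Only Prkaa2 and Prkag2 overlapped among neighbours in this order. In LL37 skin the order was Prkag1 (24.8 ± 3.7 CPM per kb), Prkab1 (13.5 ± 1.1), Prkaa1 (9.62 ± 0.80), Prkab2 (5.94 ± 0.77), Prkag2 (4.70 ± 0.30), Prkaa2 (0.546 ± 0.042) and Prkag3 (0.334 ± 0.376), of which the last pair overlapped. The mean of Prkag3 was 0.116 CPM per kb without LL37 replicate 3. In LL37 + RAPA, Prkag3 (1.51 ± 0.27 CPM per kb) stood above Prkaa2 (1.06 ± 0.10) in every library.

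Within each subunit type the mean share of the muscle-enriched gene was lower in both LL37 groups. Prkaa2 made up 44.9% ± 3.8 (SD, n = 3) of the summed α level per kb in control, 43.2% ± 0.4 in control + RAPA, 5.41% ± 0.82 in LL37 and 11% ± 1.4 in LL37 + RAPA. Prkab2 made up 61.7% ± 5.1 of the β level in control, 58.9% ± 4.9 in control + RAPA, 30.6% ± 4.2 in LL37 and 37.8% ± 2.3 in LL37 + RAPA. Prkag3 made up 10.4% ± 3.2 of the γ level in control, 7.53% ± 4.0 in control + RAPA, 1.18% ± 1.39 in LL37 (0.385% without replicate 3) and 4.78% ± 0.87 in LL37 + RAPA. Libraries with and without LL37 did not overlap in the α and β shares, while LL37 + RAPA overlapped with control + RAPA in the share of Prkag3, and the main β gene changed from Prkab2 to Prkab1.

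The summed level per kb, a quantity added after the values were seen, was 14.4 ± 0.2 for α in control + RAPA and 9.66 ± 0.43 in LL37 + RAPA, 1.49-fold lower without overlap (exact permutation p = 0.1). For β it was 26.8 ± 2.1 and 18.1 ± 0.4 in the same groups, 1.47-fold lower without overlap (exact permutation p = 0.1). For γ it was 34.4 ± 3.2 and 31.6 ± 0.5, with overlap (exact permutation p = 0.4). The γ sum is mostly Prkag1, at 72.5% to 82.9% of it in the group means. Values of RNA say nothing of how the subunits were assembled.

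**Figure D3:**
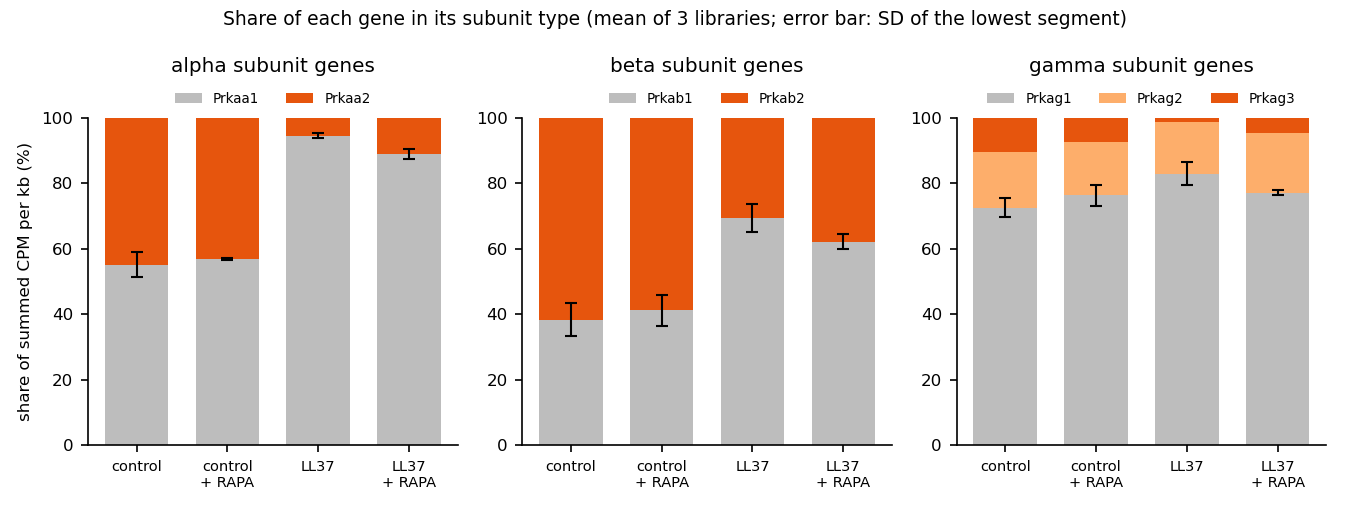
Share of each gene in the summed CPM per kb of its subunit type (vertical axis, %) in the 4 groups, as means of 3 libraries with the SD of the lowest segment. The orange segments of Prkaa2, Prkab2 and Prkag3 are widest in control and narrowest in LL37, with Prkaa2 at 44.9% and 5.41%.

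Skeletal muscle genes moved with the same groups. A list of 45 skeletal muscle genes took between 4.86% and 6.88% of all counts in control, 5.04% and 8.0% in control + RAPA, 0.0118% and 0.145% in LL37, and 0.50% and 1.05% in LL37 + RAPA. In control skin all but at most 1 of the 45 genes were above 3 counts in each library, and in LL37 between 36 and 44 were. Of the 45, 8 were at 0 in at least 1 of the 3 LL37 libraries, Myh4 and Pvalb among these. Tnnc2, troponin C of fast muscle, was at 0 in all 3 LL37 libraries and at 0 to 4 counts in LL37 + RAPA. Its counts in control are not given here, so its 0 is not read as a fall. Of the 8 fast fibre genes, 7 passed the filter on low counts. Fast fibre genes took 1.67% of counts in control and slow fibre genes 0.0013%. Fewer muscle cells in the sample and less of these RNAs per cell cannot be told apart in bulk skin, and the part of muscle content in the values of the AMPK genes was not tested.

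The muscle-enriched AMPK genes moved less than most of that list. In LL37 + RAPA against control + RAPA the median log2 fold change of the 44 muscle genes tested was -3.04 (32 lower, 0 higher), and 34 of the 44 were lower than the value of Prkaa2 and 42 lower than those of Prkab2 and Prkag3. Against LL37 the median was 3.65 (41 higher, 0 lower), and only 2 of the 44 had a smaller value than Prkaa2 (0.96) and 4 a smaller one than Prkag3 (2.11). Per 1000 CPM of the muscle list, Prkaa2 stood at 0.843 CPM in control, 0.784 in control + RAPA, 21.6 in LL37 and 1.25 in LL37 + RAPA. The LL37 libraries ranged from 3.01 to 40.1 in this quantity, and their mean was 12.4 without replicate 1. The same quantity for Prkag3 was 0.205 in control, 0.139 in control + RAPA, 2.71 in LL37 (1.89 to 4.15 by library) and 0.806 in LL37 + RAPA. Prkab2 went from 1.36 in control to 136 in LL37 and 5.26 in LL37 + RAPA, closer to Prkaa1 (0.615, 209 and 6.14), although its LL37 libraries ranged from 25.5 to 241 and averaged 83.7 without replicate 1.

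Across the 12 libraries the Pearson r of log2 CPM with the summed muscle level was 0.94 for Prkag3, 0.92 for Prkaa2, 0.89 for Prkab2, 0.61 for Prkag2, -0.04 for Prkag1, -0.78 for Prkaa1 and -0.89 for Prkab1. This is a description over 12 libraries that fall into separate groups. Within LL37, Prkag3 was highest in replicate 3, which also had the most muscle counts (0.145%, against 0.0118% and 0.0201%), while Prkaa2 was lowest there. That library is the one that stood apart on the first principal component.

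**Figure D4:**
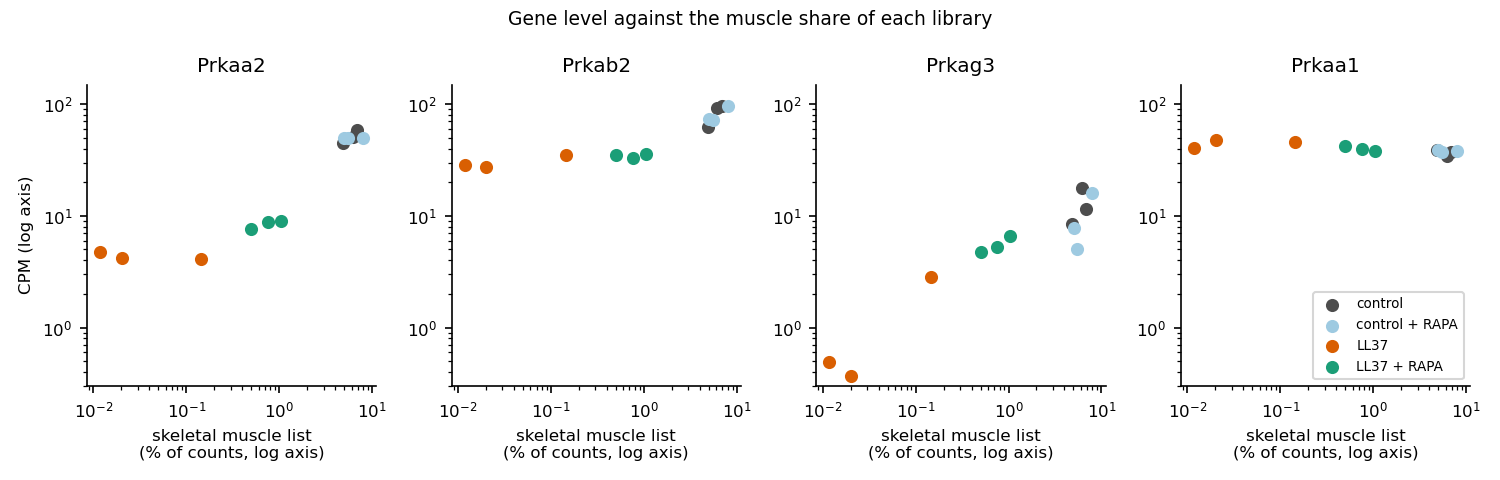
CPM of Prkaa2, Prkab2, Prkag3 and Prkaa1 (vertical log axis) against the share of counts on the skeletal muscle list (horizontal log axis, %), 1 point per library. Within LL37, Prkag3 is highest in the library with the largest muscle share (2.83 CPM at 0.145%), whereas Prkab2 stays between 27.6 and 36.0 CPM from 0.0118% to 1.05% and Prkaa1 stays between 34.5 and 48.2 CPM throughout.

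Summed levels of marker lists of other cell types differed between groups as well. Macrophage markers took 0.0707% of counts in control, 0.0499% in control + RAPA, 0.162% in LL37 and 0.107% in LL37 + RAPA, and neutrophil markers 0.152% in LL37 and 0.0279% in LL37 + RAPA against 0.0034% in control. These values are means. By library the neutrophil share ran from 0.0268% to 0.253% in LL37 and from 0.00896% to 0.0387% in LL37 + RAPA, so these 2 groups overlapped. Adipocyte markers were at 0.204%, 0.268%, 0.0648% and 0.295% in control, control + RAPA, LL37 and LL37 + RAPA. Smooth muscle markers were at 0.366%, 0.404%, 0.0537% and 0.136%, and fibroblast markers at 0.443%, 0.288%, 0.477% and 0.597%, in the same order. A sum can rest on a few abundant markers. In LL37 against control the log2 fold changes of the 10 smooth muscle markers ran from -4.61 to 0.21 (median -0.45). Those of the 10 fibroblast markers ran from -2.94 to 0.96 (median -0.01). The part of these cell types in the values of the AMPK genes was not tested.

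Genes whose log2 CPM followed a member most closely over the 12 libraries were found for each, as a description over libraries that fall into separate groups. For Prkaa2 they were Nipsnap2 (r = 0.996), Dcaf6 (0.996) and Mfn2 (0.994), a mitochondrial fusion protein. Nipsnap2, a mitochondrial protein, was at 220 CPM in control, 199 in control + RAPA, 59.3 in LL37 and 78.7 in LL37 + RAPA, in the same order of groups as Prkaa2. For Prkab2 they were Ubac1, Ubr3 and Rnf123 (0.99 each), all tied to ubiquitin ligases, and for Prkag3 the potassium channel gene Kcnn3, Cib2 and Tceal5 (0.98 each). None of these 9 was on the muscle list, which holds 45 genes and is not a full set of genes expressed in muscle. For Prkab1 they were Mtf2 (0.98), Pxdc1 (0.97) and Ier3 (0.97), an immediate early gene, and for Prkaa1 Fcf1, Aph1a (0.94 each) and Gm27326 (0.92). Prkag2 was followed by Sik2 (0.94), a kinase related to AMPK, Zfp37 (0.91) and Vps13c (0.90), and Prkag1 less closely by Zfp689 (0.84), Trabd and Polr2e (0.83 each).

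The rest of the pathway was read from 4 lists. Of 19 regulators (upstream kinases, phosphatases and sensors), 6 were lower and 0 higher in LL37 + RAPA than in control + RAPA, with a median log2 fold change of -0.16, where 18.6% of all genes passed and 10.4% passed and were lower. Flcn, the folliculin gene, was 2.01-fold lower (114.7 ± 2.8 CPM to 57.1 ± 4.2, edgeR adjusted p = 0.000699), and Stradb, a partner of LKB1, 1.97-fold lower (edgeR adjusted p = 0.00109). Adipor1, an adiponectin receptor, and Cab39, the MO25 scaffold of LKB1, were 1.35-fold and 1.29-fold lower (edgeR adjusted p = 0.00341 and 0.0246), and the call of Cab39 was lost without control + RAPA replicate 1 or 2 or LL37 + RAPA replicate 1 or 3. The others were Ppm1a and Stk11, which encodes LKB1 (log2 fold changes -0.36 and -0.28). Mean CPM in control, control + RAPA, LL37 and LL37 + RAPA was 265, 322, 240 and 239 for Adipor1. For Cab39 it was 131, 148, 132 and 115 in the same order. Compared with control, 2 of 19 regulators were lower and 0 higher in LL37 + RAPA, where 9.01% of all genes passed and were lower. Against LL37, where 24.2% of all genes passed and 11.8% passed and were lower, 2 of 19 were lower and 0 higher, namely Sesn2, a stress-induced sestrin (log2 fold change -0.79, edgeR adjusted p = 0.0018), and Map3k7, which encodes TAK1 (log2 fold change -0.29, edgeR adjusted p = 0.0254). The call of Map3k7 was lost without any 1 of the libraries of these groups other than LL37 replicate 3 (edgeR adjusted p from 0.0581 to 0.108).

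Of 24 substrates, 7 were lower and 0 higher in LL37 + RAPA than in control + RAPA, with a median log2 fold change of -0.24, beside the same 18.6% and 10.4% of all genes. Ppargc1a, the coactivator of mitochondrial biogenesis, was at 17.7 ± 6.1 CPM in control + RAPA and 0.957 ± 0.269 in LL37 + RAPA (log2 fold change -4.21 ± 0.50 SE, edgeR adjusted p = 0.000207). Gys1, muscle glycogen synthase, was 4.76-fold lower (edgeR adjusted p = 1.97e-06). The Rab GTPase-activating proteins Tbc1d4 and Tbc1d1, which act on glucose transporter traffic, were 2.24-fold and 1.52-fold lower (edgeR adjusted p = 4.05e-05 and 0.0341). The call of Tbc1d1 was lost without any 1 of control + RAPA replicates 1 and 2 and LL37 + RAPA replicates 1, 2 and 3 (edgeR adjusted p from 0.056 to 0.155). Ulk1, which starts autophagy, Hdac5 and Tsc2, the brake on mTORC1 named above, were also lower (log2 fold changes -0.60, -0.38 and -0.38).

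Against LL37, 3 of 24 substrates were higher and 2 lower, beside 12.4% and 11.8% of all genes. Lipe, hormone-sensitive lipase, was at 43.4 ± 8.2 CPM in LL37 and 143.7 ± 9.6 in LL37 + RAPA (3.31-fold, edgeR adjusted p = 0.00104). Txnip, an inhibitor of thioredoxin, was 3.10-fold higher and Acacb, acetyl-CoA carboxylase of muscle and other oxidative tissues, 1.76-fold higher (edgeR adjusted p = 0.0021 and 0.0157), the latter not without LL37 + RAPA replicate 1 (edgeR adjusted p = 0.0662). Acacb also did not pass in a fit of only these groups (edgeR adjusted p = 0.0712). Pfkfb3, a driver of glycolysis, was 2.53-fold lower (edgeR adjusted p = 0.00969), and Becn1, an autophagy gene, was lower by less (log2 fold change -0.25). Without LL37 replicate 3 the count was 13 of 24. Calls over all genes rose there too, to 6408 of 18396 from 4359 of 17993.

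Of 12 AMPK-related kinases, 0 passed between LL37 + RAPA and control + RAPA in edgeR (1 at an unadjusted p under 0.05) and 0 in DESeq2. Against LL37, 5 of 12 were higher and 0 lower, beside 12.4% and 11.8% of all genes, among them Nuak1 (2.55-fold), the salt-inducible kinases Sik1 (2.17-fold) and Sik2 (2.04-fold) and Mark1 (1.38-fold), with edgeR adjusted p of 0.0118, 0.00415, 0.0112 and 0.0436, and Snrk (log2 fold change 0.44). The call of Mark1 was lost without any 1 of the 6 libraries of these groups or control replicate 3 (edgeR adjusted p from 0.0521 to 0.12). In a fit of only these groups Nuak1 and Mark1 did not pass (edgeR adjusted p = 0.0698 and 0.0587). Nuak1 was at 20.2 to 56.1 CPM in the LL37 libraries. The median log2 fold change of the 12 was 0.33 against 0.00 over all genes.

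Of 11 adenylate and creatine enzymes, which set the nucleotide levels that AMPK senses, 4 were lower and 0 higher in LL37 + RAPA than in control + RAPA, and these 4 are known for high levels in muscle. The median log2 fold change of the 11 was 0.06, and 10.4% of all genes passed and were lower. Ckmt2, the mitochondrial creatine kinase of muscle, was at 78.1 ± 10 CPM in control + RAPA and 2.80 ± 2.26 in LL37 + RAPA (log2 fold change -4.82 ± 0.58 SE, edgeR adjusted p = 0.000228). Ampd1, muscle AMP deaminase, Ckm, muscle creatine kinase, and Ak1, adenylate kinase, had log2 fold changes of -3.78, -3.58 and -2.52 (edgeR adjusted p = 0.000281, 0.0272 and 0.000109). The call of Ckm was lost without any 1 of the 6 libraries of these groups (edgeR adjusted p from 0.0506 to 0.113). Against LL37, 3 of 11 were higher and 4 lower, beside 12.4% and 11.8% of all genes. Ckm, Ckmt2 and Ampd1 were higher (log2 fold changes 4.31, 3.10 and 2.68, edgeR adjusted p = 0.0135, 0.0248 and 0.00999), although Ckmt2 overlapped between the groups and lost its call without LL37 replicate 1 or 2 or LL37 + RAPA replicate 1 or 3. In a fit of only these groups Ckm and Ckmt2 did not pass (edgeR adjusted p = 0.0673 and 0.114). In contrast, Ak4, Ampd3 and Ampd2 were among the lower genes (log2 fold changes -1.33, -0.81 and -0.54).

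**Figure D5:**
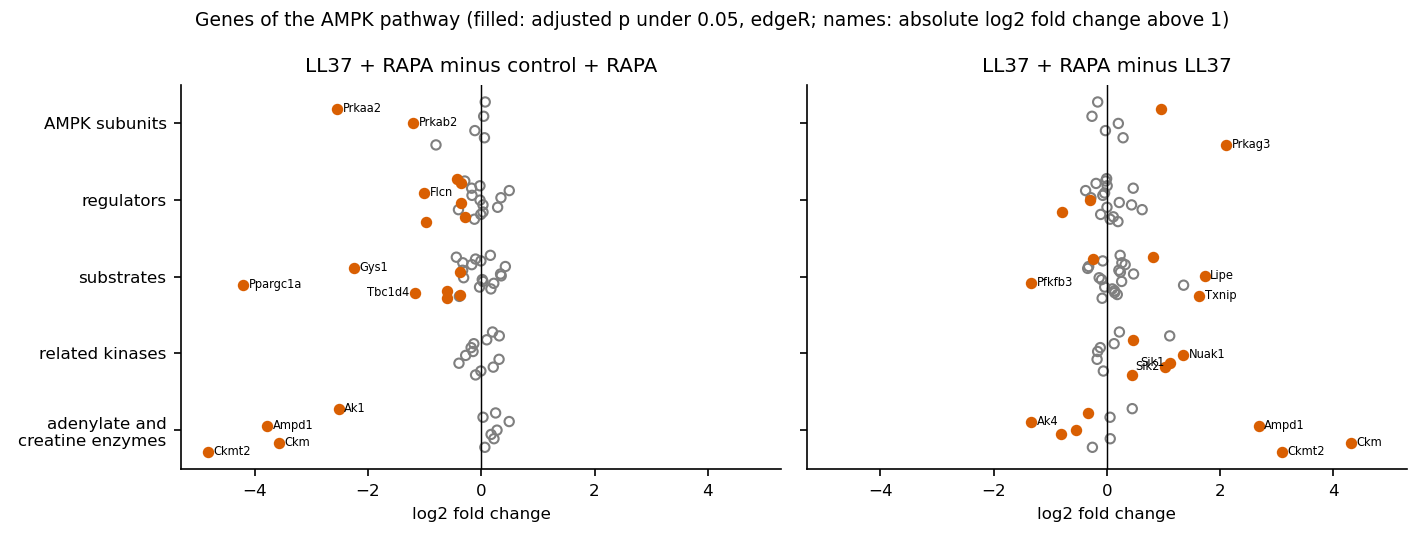
Log2 fold change (horizontal axis) of every tested gene of the AMPK subunits and 4 pathway lists (rows) in 2 comparisons, filled where the edgeR adjusted p is under 0.05 and named where the absolute value is also above 1. On the left all filled points lie below 0, with Ckmt2 at -4.82, and on the right they lie on both sides.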

How the data were processed

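RNA was measured in whole mouse skin from 12 libraries, made with the Illumina TruSeq RNA kit. The authors deposited raw read counts per Ensembl gene, not normalized and with replicates not pooled. The submitters' processing notes name HISAT2 2.0.5, StringTie 1.3.3b, featureCounts 1.5.0-p3 and DESeq2 1.16.1 with the build mm10, whereas the paper's methods name HTSeq as the counter, and which of these made the table is not settled here. A strand setting is not given in the sources used here, so reads of the antisense neighbours of Prkab2, Prkag1 and Prkag2 (at most 34 counts per library) cannot be told apart from the members' own. The longest exact run shared by transcripts of different members was 35 bases.

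Libraries held 15734559 to 23271784 counts, and 3 counts equal 0.123 to 0.184 CPM. This floor and the SE of low counts cover counting error and the spread between samples only, and reads are not independent molecules. Each group was 3 biological samples. Every column of the table was mapped to a sample by its label. Counts were fitted in R 4.3.3 with edgeR 4.0.16 (TMM, filterByExpr by group, quasi-likelihood F-test, all 12 libraries, Benjamini-Hochberg over 17993 genes, adjusted p under 0.05). Symbols, positions and exonic lengths came from GENCODE M21 (GRCm38), which matched 52403 of 52636 identifiers. Isoform ratios are log2 of counts plus 0.5, compared by two-sided exact permutation tests. Log2 CPM for correlations used a prior count of 2.

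The members, the marker lists and the pathway lists were chosen with earlier results of these data known. Named genes are the 7 members, up to 4 genes with the largest absolute log2 fold change among those past the test in each pathway list and in each of 2 comparisons (LL37 + RAPA against control + RAPA and against LL37), and the 3 genes most correlated with each member. Genes beyond that rule (Stk11, Ppm1a, Ulk1, Hdac5, Tsc2, Becn1, Snrk, Ampd2, Ampd3, Tnnc2, Myh4 and Pvalb) were named after their values were seen. Alternatives were DESeq2 size factors, library size only, removal of the muscle list, a filter of 1 count in total, DESeq2 1.42.0, only the groups compared, the replicate number as a block, each library left out, and a limit of 1 on the absolute log2 fold change. LL37 group values with a replicate left out, and the 2 ratios and summed levels named as such, were added after the values were seen. The fit was tested on simulated data. Promoters are RefSeq windows of GRCm38.p6, and protein sequences were not used here.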

Additional observations from a re-analysis of the deposited data

Results flagged for a closer look

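Among the 7 members, the effect of RAPA on Prkaa2 differed between LL37-injected and control skin, by an interaction of 1.01 ± 0.17 (log2 ± SE, edgeR adjusted p = 0.0211). This term contains the LL37 against control difference on which Prkaa2 was picked, and its adjusted p was 0.0523, 0.062 and 0.0687 in edgeR without control replicate 1, control + RAPA replicate 3 or LL37 + RAPA replicate 1. The log2 effect of RAPA on Prkaa2 was 0.96 in LL37 skin and -0.05 in control skin. Of the named pathway genes, Sesn2 (regulators) had an interaction of -0.93 ± 0.17 (log2 ± SE, edgeR adjusted p = 0.0235) and Lipe (substrates) one of 1.5 ± 0.28 (edgeR adjusted p = 0.0246). Both were named for their difference between LL37 + RAPA and LL37, which is a part of this term, so these p values are not independent of that choice. In the lists 1 of 19 regulators, 1 of 24 substrates, 0 of 12 related kinases and 0 of 11 enzymes passed. Over all genes tested, 3.28% passed the same test.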

How the results depend on the processing

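Prkaa2 and Prkab2 passed the test between LL37 + RAPA and control + RAPA under all 19 alternatives run for each, with edgeR or DESeq2 adjusted p at most 2.3e-05 and 0.00425. Scaling by library size only moved the median log2 fold change of all genes to 0.18 in that comparison. The number of called members otherwise changed as follows. In LL37 against control it was 3 with the fold limit and 4 to 5 with 1 library left out. In LL37 + RAPA against LL37 it was 3 in DESeq2, with DESeq2 size factors and with the muscle list removed, 1 in a fit of only these groups, 1 with the fold limit and 1 to 4 with 1 library left out. In the interaction it was 3 in DESeq2 and 0 to 3 with 1 library left out, with 0 without control replicate 1, control + RAPA replicate 3 or LL37 + RAPA replicate 1. Over all genes the interaction called 590 of 17993 in the main fit and 1745 of 17993 in DESeq2. With 1 library left out it called from 2 of 18437 (without LL37 + RAPA replicate 1) to 3145 of 18396 (without LL37 replicate 3).

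For LL37 + RAPA against control + RAPA, called regulators were 3 with the filter of 1 count, 1 with the fold limit and 3 to 8 with 1 library left out (3 without control + RAPA replicate 1). Called substrates were 3 with the fold limit and 4 to 9 (4 without control + RAPA replicate 1 or LL37 + RAPA replicate 2). Related kinases were 1 with library size only and 0 to 1 (1 without control + RAPA replicate 3 or LL37 replicate 3), and the enzymes 7 with library size only and 3 to 5. Over all genes, 3338 of 17993 passed in the main fit, 4336 of 17993 with library size only and 3063 of 31949 with the filter of 1 count. They were 2125 of 18449 without control + RAPA replicate 1. With 1 library left out they ran from 1982 of 18418 (without LL37 + RAPA replicate 2) to 4198 of 18396 (without LL37 replicate 3). For LL37 + RAPA against LL37, regulators were 1 in a fit of only these groups, 0 with the fold limit and 1 to 5 (5 without LL37 replicate 3, and 1 without any other library of these groups). Substrates were 3 in both of these settings and 3 to 13 (3 without LL37 + RAPA replicate 1), related kinases 3 in both and 3 to 5 (3 without LL37 replicate 1), and the enzymes 3 and 4 and 3 to 8 (3 without LL37 replicate 1 or LL37 + RAPA replicate 1, and 4 without LL37 replicate 2 or LL37 + RAPA replicate 3). Over all genes, 4359 of 17993 passed against LL37 in the main fit and 2463 of 17234 in a fit of only these groups. With 1 library left out they ran from 2089 of 18403 (without LL37 replicate 1) to 6408 of 18396 (without LL37 replicate 3). The causes were not tested.

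Signs changed only where log2 fold changes were near 0 and no call was involved. With library size only, Prkaa1 (-0.0082) and Prkag2 (-0.055) in control + RAPA against control and Prkag1 in LL37 + RAPA against control + RAPA (0.075) and LL37 (0.016) did so. Prkag2 in control + RAPA against control was also at -0.011 with DESeq2 size factors, -0.0041 without the muscle list, -0.019 with the filter of 1 count, -0.011 in DESeq2, -0.0073 in the 2 groups alone and, with 1 library left out, between -0.058 and 0.059. With 1 library left out, the ranges in control + RAPA against control were -0.16 to 0.044 for Prkaa2, -0.011 to 0.060 for Prkaa1 and -0.25 to 0.044 for Prkab2. They were -0.0047 to 0.072 for Prkab1 and -0.022 to 0.11 for Prkag2 in LL37 + RAPA against control + RAPA, and -0.11 to 0.095 for Prkag1 against LL37.

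The labels number the replicates and do not say whether equal numbers pair the samples. Over 18 same-numbered pairs the correlation of deviations ran from -0.19 to 0.26, with 4 over 0.1. With 3 libraries per group these values cannot settle whether samples were paired. With the replicate number as a block, 2 members passed between LL37 + RAPA and control + RAPA, 2 against LL37 and 1 in the interaction, the log2 fold change of Prkag2 in control + RAPA against control was -0.0039, and Tbc1d1 (adjusted p = 0.0572) and Mark1 (0.0665) lost their calls. The 3 LL37 libraries with 6 to 60 counts of Prkag3 limit what can be said of that gene.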
